A study of Mus musculus with 6 samples.

Results

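The repair of DNA interstrand crosslinks was followed through 35 genes of the Fanconi, homologous recombination, incision, translesion bypass and alkyl repair pathways in whole mouse ovaries. The genes were listed by symbol for their roles in these pathways, and all 35 were found among the 46078 genes of the deposited tables. The tables hold 3 libraries from ovaries of C57BL/6 mice given cyclophosphamide (CTX) and 3 from control ovaries of the same strain, all at 8 to 9 weeks of age. The sources used here give no dose, route, time after treatment or vehicle. They also do not say whether a library is 1 animal or a pool, so a p-value below reflects the spread among 6 libraries, which may be technical. Values are RPKM, reads scaled to exon length and library depth, so levels of different genes can be compared per length. The genes lie on 16 chromosomes, with 6 each on chromosomes 7 and 11 (GENCODE M21, GRCm38).

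Cyclophosphamide is converted in the body into a mustard that links guanines on opposite DNA strands, and such a link blocks replication and transcription. When a replication fork meets a crosslink, the Fanconi core complex attaches ubiquitin to the FANCD2-FANCI clamp, nucleases cut around the link, translesion polymerases copy past the unhooked base, and homologous recombination restores the broken strand. Most of these proteins act in dividing cells and in germ cells, while direct reversal enzymes such as MGMT remove alkyl groups without cutting DNA. In the ovary, oocytes in resting follicles and dividing granulosa cells are known to be sensitive to crosslinking drugs.

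No crosslink repair gene passed the test in CTX ovaries. Limma on log2(RPKM + 1) called 0 of 35 members at a Benjamini-Hochberg adjusted p under 0.05, where it called 0% of all 14535 genes tested, and each member's adjusted p was 1. The unadjusted limma p was under 0.05 in 1 member, Xrcc3, which was lower in CTX, against 3.45% of all tested genes in either direction (501 genes) and 2.29% lower in CTX. The sign of the log2 fold change (CTX minus control) was positive in 18 members and negative in 17, against 48.8% positive over all tested genes. The fold changes ranged from −0.41 to 0.28 with a median of 0.00, and the median over all tested genes was −0.005. The CTX and control values, in RPKM as deposited, did not overlap in 1 member, Mus81, against 8.83% of all tested genes.

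**Figure D1:**
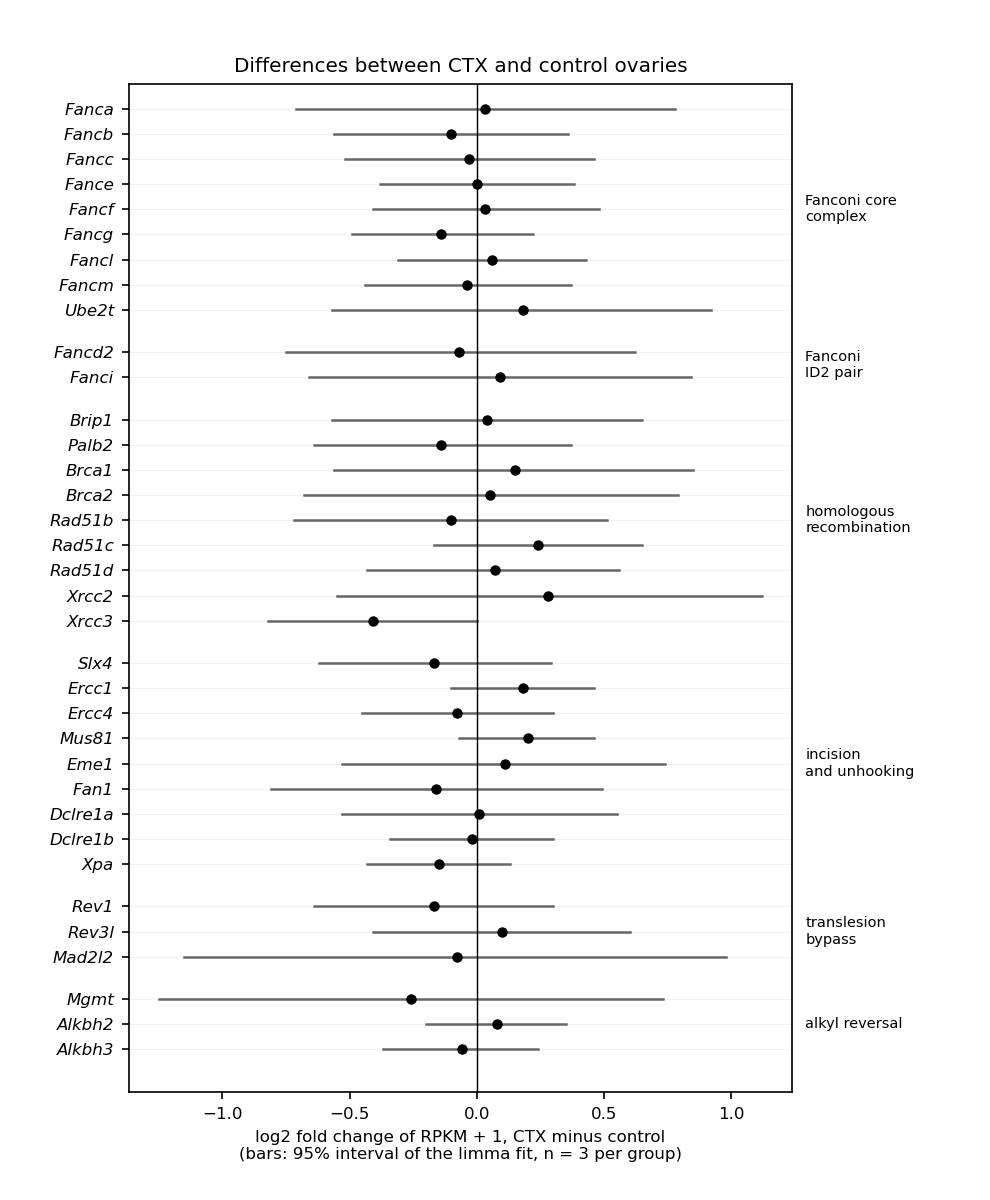
Fitted log2 fold change of each of the 35 members (points), CTX minus control on the log2(RPKM + 1) scale, with the 95% interval of the limma fit (bars, n = 3 libraries per group). The points lie between −0.41 for Xrcc3 and 0.28 for Xrcc2, and the widest intervals belong to Mad2l2 and Mgmt.

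The precision of the design sets what could have been seen. In 32 of 35 members the 95% interval of the log2 fold change lay between −1 and 1, so a change of 1 log2 unit in RPKM + 1 in either direction was outside it. The exceptions were Xrcc2, whose interval ran up to 1.12, Mad2l2, whose interval ran down to −1.15, and Mgmt, whose interval ran down to −1.25. A change of 1 log2 unit in RPKM + 1 is a larger change in RPKM itself. The gap is widest in low genes, and 15 members had a mean under 3 RPKM. For these the intervals say little about moderate changes in RPKM. The standard error over members had a median of 0.202, and the pooled SD within groups a median of 0.256, beside 0.23 over all tested genes. Averaged over the 6 libraries, a member rested on about 77 reads (Fancb) to 1319 reads (Rev3l), taken from the estimated depth of 15900000 to 22300000 reads.

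Members were low to moderate in whole ovary. Their mean RPKM over the 6 libraries ran from 1.12 (Brip1) to 17.4 (Xrcc3) with a median of 3.46, beside 8.52 over all tested genes. All 35 passed the filter of 1 RPKM in at least 3 libraries, and 26 reached 1 RPKM in all 6. The highest library stood 1.2 to 3.66 times above the lowest, with a median of 1.74 over members and 1.64 over all tested genes.

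**Figure D2:**
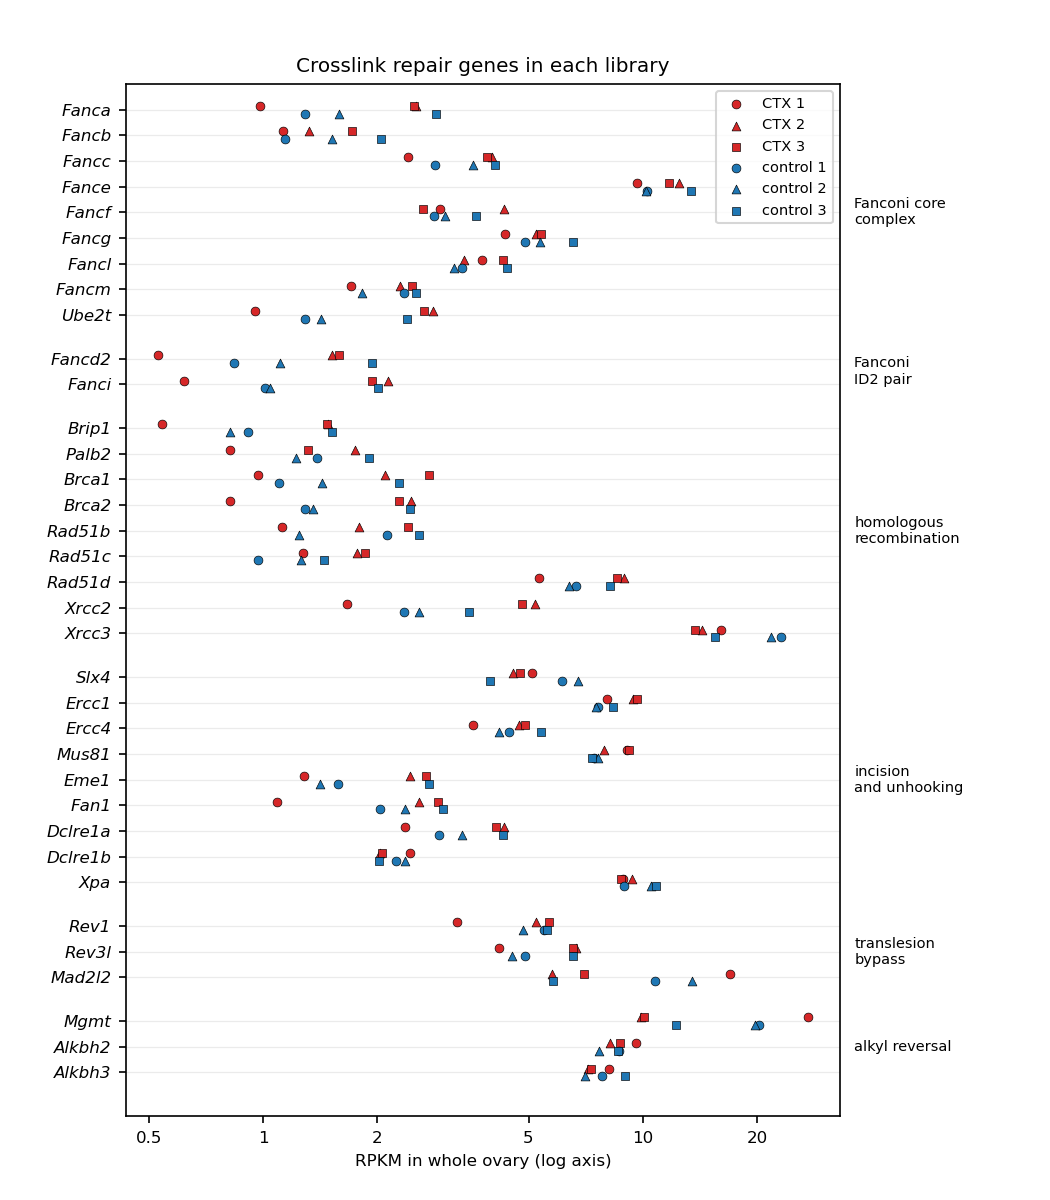
RPKM of each member (log axis) in the 3 CTX libraries (red, upper row of each gene) and the 3 control libraries (blue, lower row), grouped by role. In most Fanconi and recombination genes CTX 1 is the lowest point and CTX 2, CTX 3 and control 3 are the highest, while in Mgmt and Mad2l2 CTX 1 is the highest point.

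Promoter windows of 8 members are shown because the results below return to them: Mus81 for its separated groups, Xrcc3 and Mgmt as the most abundant members, Alkbh2 and Alkbh3 as the other direct reversal genes, and Fancg, Brca2 and Rad51c, picked after the motif search, for a match to an E2F motif. Each runs from 250 bases before the RefSeq transcript start to 50 after it, on GRCm38.p6 (the assembly of mm10), 5′ to 3′ along the gene. For Mgmt and Rad51c, which have 2 windows each, the more upstream is shown. Capitals mark matches on either strand to E2F (TTTCCCGC, TTTCGCGC, TTTGCCGC or TTTGGCGC), CCAAT or the Sp1 core GGGCGG, and neighbouring matches run together.
Mus81, chr19:5488330-5488629, minus strand: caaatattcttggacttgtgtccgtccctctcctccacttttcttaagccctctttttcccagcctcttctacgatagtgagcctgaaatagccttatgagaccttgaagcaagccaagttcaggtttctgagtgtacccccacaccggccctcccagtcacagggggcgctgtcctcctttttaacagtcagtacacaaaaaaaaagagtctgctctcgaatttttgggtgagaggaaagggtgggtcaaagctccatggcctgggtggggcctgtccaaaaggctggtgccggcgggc
Xrcc3, chr12:111813830-111814129, minus strand: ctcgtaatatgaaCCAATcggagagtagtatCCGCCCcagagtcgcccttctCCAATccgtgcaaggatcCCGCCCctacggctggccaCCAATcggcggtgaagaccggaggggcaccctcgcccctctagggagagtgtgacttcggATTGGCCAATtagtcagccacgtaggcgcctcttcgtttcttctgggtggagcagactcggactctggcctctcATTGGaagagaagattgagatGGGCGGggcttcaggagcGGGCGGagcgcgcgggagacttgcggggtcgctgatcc
Mgmt, chr7:136894336-136894635, plus strand: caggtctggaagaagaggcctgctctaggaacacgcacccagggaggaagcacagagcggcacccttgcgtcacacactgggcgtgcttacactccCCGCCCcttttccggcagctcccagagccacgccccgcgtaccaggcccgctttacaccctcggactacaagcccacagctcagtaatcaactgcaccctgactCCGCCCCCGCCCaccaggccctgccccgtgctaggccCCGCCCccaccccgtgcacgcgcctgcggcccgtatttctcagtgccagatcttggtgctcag
Alkbh2, chr5:114128169-114128468, minus strand: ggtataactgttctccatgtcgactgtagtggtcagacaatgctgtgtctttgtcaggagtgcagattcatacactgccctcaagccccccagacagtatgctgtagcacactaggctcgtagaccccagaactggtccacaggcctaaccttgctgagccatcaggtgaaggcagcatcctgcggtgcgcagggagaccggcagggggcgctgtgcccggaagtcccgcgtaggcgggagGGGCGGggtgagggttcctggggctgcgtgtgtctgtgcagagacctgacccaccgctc
Alkbh3, chr2:94010681-94010980, minus strand: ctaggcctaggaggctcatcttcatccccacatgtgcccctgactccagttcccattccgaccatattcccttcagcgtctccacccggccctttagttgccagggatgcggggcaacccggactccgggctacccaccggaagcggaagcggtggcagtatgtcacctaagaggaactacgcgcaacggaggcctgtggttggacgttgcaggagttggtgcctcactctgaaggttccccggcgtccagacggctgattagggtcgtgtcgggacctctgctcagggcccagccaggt
Fancg, chr4:43010252-43010551, minus strand: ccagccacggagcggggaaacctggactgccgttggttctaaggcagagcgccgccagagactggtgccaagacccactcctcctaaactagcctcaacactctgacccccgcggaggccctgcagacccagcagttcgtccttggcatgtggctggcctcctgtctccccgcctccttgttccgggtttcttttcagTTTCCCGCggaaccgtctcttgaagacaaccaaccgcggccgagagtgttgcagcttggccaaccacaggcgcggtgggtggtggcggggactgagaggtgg
Brca2, chr5:150522371-150522670, plus strand: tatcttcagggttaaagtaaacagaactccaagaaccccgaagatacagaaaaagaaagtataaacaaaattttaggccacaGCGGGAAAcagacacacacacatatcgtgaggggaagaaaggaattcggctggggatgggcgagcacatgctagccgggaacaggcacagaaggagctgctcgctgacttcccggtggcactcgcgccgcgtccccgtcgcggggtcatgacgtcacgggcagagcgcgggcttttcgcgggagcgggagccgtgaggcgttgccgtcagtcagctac
Rad51c, chr11:87404905-87405204, minus strand: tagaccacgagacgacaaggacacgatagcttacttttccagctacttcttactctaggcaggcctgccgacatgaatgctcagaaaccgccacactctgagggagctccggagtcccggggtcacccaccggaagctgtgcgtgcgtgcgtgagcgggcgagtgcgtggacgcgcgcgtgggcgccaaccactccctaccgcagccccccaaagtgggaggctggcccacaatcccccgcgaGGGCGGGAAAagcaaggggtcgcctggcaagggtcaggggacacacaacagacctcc

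RefSeq windows were at hand for 31 of 35 members, 35 windows in all, and Fancd2, Rad51d, Xrcc2 and Rev3l were not matched. An E2F match was found in 11.4% of the member windows (Fancg, Brca2 and both windows of Rad51c), beside 3.79% of windows of tested genes and 2.26% of all 32851 windows. It began at position −52 from the start in Fancg, −168 in Brca2 and −5 in the Rad51c window shown, where it shares bases with a GGGCGG match. CCAAT was found in 48.6% of member windows, 37.2% of windows of tested genes and 37.4% of all windows, and the Xrcc3 window held 6 matches. GGGCGG was found in 51.4%, 61.9% and 35.7%, with 4 matches each in the Xrcc3 and Mgmt windows shown. TTTGAA, the core of the cell cycle homology element CHR, was found in 8.57%, 11.6% and 17.9%, and the ETS motif ACCGGAAGT in 2.86%, 2.14% and 1.1%. The windows of Mus81 and Alkbh3 held none of the 3 motifs marked by capitals. A match is a run of letters and was not tested as a site.

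Members often lie head to head with another gene. Within 1000 bases of the member's annotated start, a protein-coding gene started on the opposite strand for 12 of 35 members (34.3%), against 1983 of 12559 tested protein-coding genes (15.8%). Fancd2 and Emc3, a membrane protein insertase gene, start 30 bases apart, Palb2 and Dctn5 56 bases, and Brca1 and Nbr1 194 bases. Levels differed widely within the Fancd2 and Brca1 pairs. Emc3 had 43.4, 37.2 and 35.5 RPKM in CTX 1, 2 and 3, against 39.2, 42.1 and 38.5 in controls 1, 2 and 3, while Fancd2 had 0.53, 1.52 and 1.58 in CTX and 0.84, 1.11 and 1.94 in control. Nbr1, an autophagy receptor gene, had 26.3, 28.6 and 28.0 in CTX and 30.7, 31.6 and 28.4 in control, while Brca1 had 0.97, 2.10 and 2.73 in CTX and 1.10, 1.43 and 2.28 in control. In both pairs the partner varied little over libraries in which the repair gene varied 3.66-fold (Fancd2) and 2.81-fold (Brca1). Tex14, a germ cell gene that starts 111 bases from Rad51c, did vary, with 1.59, 4.9 and 5.14 in CTX and 1.74, 1.33 and 3.38 in control.

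The Fanconi core complex is the ubiquitin ligase of the pathway, and its 9 genes (with Ube2t) had a median log2 fold change of 0.00 (5 positive, 4 negative). Fancl, the ligase subunit itself, had 3.78, 3.38 and 4.29 RPKM in CTX 1, 2 and 3, against 3.35, 3.18 and 4.38 in controls 1, 2 and 3. Ube2t, the conjugating enzyme that works with it, had 0.95, 2.80 and 2.65 in CTX and 1.29, 1.42 and 2.39 in control. The groups overlapped in both, and the enzyme varied more than the ligase, with CTX 1 lowest. Fancb, which binds Fancl, had 1.13, 1.32 and 1.71 in CTX and 1.14, 1.52 and 2.04 in control.

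Fanca and Fancg form another subcomplex. Fanca had 0.98, 2.52 and 2.5 RPKM in CTX and 1.29, 1.58 and 2.85 in control, and Fancg had 4.34, 5.22 and 5.40 in CTX and 4.90, 5.35 and 6.54 in control. In both, CTX 1 was the lowest library and control 3 the highest. Fance, the most abundant core subunit and the link to FANCD2, had 9.66, 12.5 and 11.7 in CTX and 10.3, 10.2 and 13.4 in control, with a mean of 11.3 ± 1.45 (SD, n = 3) in CTX and 11.3 ± 1.85 in control. Its partner Fancc had 2.41, 4.0 and 3.88 in CTX and 2.84, 3.56 and 4.09 in control. The adaptor Fancf had 2.93, 4.30 and 2.64 in CTX and 2.82, 3.02 and 3.63 in control, the only core gene besides Fancl in which CTX 1 was not below both other CTX libraries. Fancm, the translocase that brings the complex to DNA, had 1.70, 2.30 and 2.47 in CTX and 2.35, 1.82 and 2.53 in control.

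Fancd2 and Fanci encode the clamp that the core complex ubiquitinates, and they were among the least abundant and most variable members. Fanci had 0.62, 2.13 and 1.94 RPKM in CTX and 1.01, 1.04 and 2.01 in control, and Fancd2 had the values given above. Means were 1.21 ± 0.59 in CTX and 1.30 ± 0.573 in control for Fancd2, and 1.56 ± 0.822 and 1.35 ± 0.569 for Fanci (SD, n = 3 each). The fitted log2 fold changes were −0.07 ± 0.28 (SE) for Fancd2 and 0.09 ± 0.31 for Fanci, so both differences were smaller than their errors. CTX 1 was the lowest library of all 6 for both genes, and its Fancd2 value rested on about 76 reads. Exons of Fanci share 921 bases (16% of its exonic length) with Polg on the opposite strand, and without stated strand use their reads cannot be told apart there. The same limit holds for smaller parts of Fancf (15%, Gas2), Fancl (13.7%, Vrk2), Fanca (10.5%, Zfp276) and Eme1 (8%, Lrrc59). Some other members share exons too. Lrrc59 had 53.1 to 112.7 RPKM, far above Eme1.

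**Figure D3:**
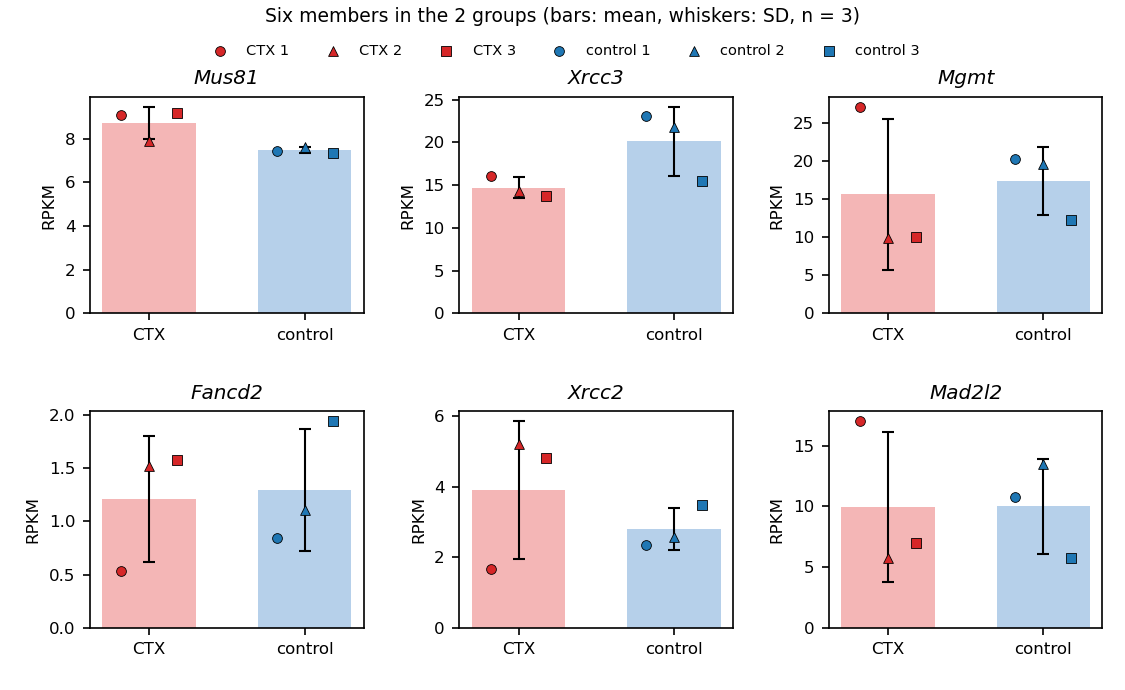
RPKM of Mus81, Xrcc3, Mgmt, Fancd2, Xrcc2 and Mad2l2 in CTX (left bar) and control (right bar), with bars at the mean, whiskers at 1 SD (n = 3) and a point for each library. The groups are apart in Mus81 alone of the 6 genes. In Mgmt, Fancd2, Xrcc2 and Mad2l2 the libraries of each group lie farther apart than the 2 means, and in Xrcc3 control 3 lies among the CTX libraries.

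Homologous recombination genes had a median log2 fold change of 0.05 (6 positive, 3 negative). Brca2, a tumour suppressor gene needed for repair by strand exchange, had 0.82, 2.45 and 2.28 RPKM in CTX and 1.29, 1.35 and 2.43 in control. Palb2, which joins BRCA1 to BRCA2, had 0.82, 1.75 and 1.31 in CTX and 1.39, 1.22 and 1.90 in control. Brip1, a helicase bound to BRCA1, had 0.54, 1.48 and 1.47 in CTX and 0.91, 0.82 and 1.52 in control. CTX 1 was the lowest library in these 3 genes and in Brca1, and the groups overlapped in each.

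The 5 genes Rad51b, Rad51c, Rad51d, Xrcc2 and Xrcc3, whose products work in shared complexes during recombination, had fitted changes of either sign, none called. Xrcc2 had the highest fitted log2 fold change of all members (0.28 ± 0.35 SE), from 1.66, 5.21 and 4.82 RPKM in CTX and 2.35, 2.57 and 3.48 in control. CTX 2 and CTX 3 stood above every control and CTX 1 below every control. Rad51c had 1.27, 1.77 and 1.86 in CTX and 0.97, 1.26 and 1.45 in control (0.24 ± 0.17), with the lowest CTX value just above the middle control. Rad51d had 5.33, 8.94 and 8.54 in CTX and 6.68, 6.41 and 8.21 in control, and Rad51b 1.12, 1.79 and 2.41 in CTX and 2.12, 1.24 and 2.58 in control.

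Xrcc3, whose product binds that of Rad51c, is the member of highest level, and its fitted change was negative. It had 16.1, 14.3 and 13.7 RPKM in CTX 1, 2 and 3, against 23.1, 21.7 and 15.53 in controls 1, 2 and 3. CTX libraries were close together, and control 3 (15.53) lay between them. Means were 14.7 ± 1.22 in CTX and 20.1 ± 4.02 in control, with a log2 fold change of −0.41 ± 0.17 (SE), an unadjusted limma p of 0.0497 and an adjusted p of 1. Klc1, which shares 12 exonic bases with Xrcc3 on the opposite strand, had 49.7, 32.1 and 28.4 in CTX and 46.0, 41.2 and 27.6 in control, so it too was lowest in control 3, CTX 2 and CTX 3.

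Incision genes had a median log2 fold change of −0.02 (4 positive, 5 negative). Mus81, the catalytic subunit of a nuclease for branched DNA, was the member with separated groups. It had 9.09, 7.89 and 9.19 RPKM in CTX 1, 2 and 3, against 7.45, 7.60 and 7.35 in controls 1, 2 and 3. Every CTX value lay above every control value, with the closest pair 7.89 and 7.60. Means were 8.72 ± 0.723 and 7.47 ± 0.126 (SD, n = 3 each), and the log2 fold change of 0.20 ± 0.11 (SE) had an unadjusted limma p of 0.12, with a 95% interval of −0.07 to 0.46. An exact permutation test of 3 libraries against 3 cannot give a p below 0.1. Over all tested genes 3.32% were separated with CTX higher. These separations are of RPKM as deposited. Dividing by the trimmed-mean scaling factors (1.033 for CTX 2, 0.978 for control 2) puts Mus81 in CTX 2 below control 2. Efemp2, which shares 173 exonic bases (4.85% of Mus81) on the opposite strand, had 36.0, 27.6 and 24.4 in CTX and 24.3, 26.2 and 29.0 in control. Eme1, which encodes a partner of MUS81, did not follow Mus81, with 1.28, 2.44 and 2.68 in CTX and 1.57, 1.41 and 2.74 in control.

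Ercc1 and Ercc4 encode the partners of the XPF-ERCC1 nuclease that cuts beside a crosslink. Ercc1 had 8.04, 9.42 and 9.63 RPKM in CTX and 7.61, 7.55 and 8.33 in control (log2 fold change 0.18 ± 0.12 SE), with CTX 1 below control 3 as the only overlap. Dividing by the trimmed-mean scaling factors (0.917 for CTX 1, 1.047 for control 3) puts CTX 1 above control 3. Ercc4 had 3.58, 4.71 and 4.89 in CTX and 4.44, 4.19 and 5.39 in control (−0.08 ± 0.16). The partners thus pointed in opposite directions, each with a 95% interval that held 0. Slx4, the scaffold that holds these nucleases, had 5.10, 4.55 and 4.75 in CTX and 6.11, 6.77 and 3.97 in control, with control 3 lowest of all 6.

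Fan1, a nuclease recruited by ubiquitinated FANCD2, had 1.09, 2.58 and 2.89 RPKM in CTX and 2.03, 2.37 and 2.98 in control. Dclre1a, an exonuclease that digests past the unhooked crosslink, had 2.37, 4.30 and 4.11 in CTX and 2.91, 3.35 and 4.29 in control. In both, CTX 1 was lowest. Dclre1b, a related exonuclease known for work at telomeres, had 2.43, 2.03 and 2.06 in CTX and 2.24, 2.37 and 2.02 in control, the narrowest range of any member (1.2-fold). Xpa, which checks damage before excision repair, had 8.85, 9.34 and 8.75 in CTX and 8.92, 10.5 and 10.9 in control (−0.15 ± 0.12 SE).

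Bypass genes divided. Rev1, a polymerase and scaffold, had 3.25, 5.22 and 5.67 RPKM in CTX and 5.5, 4.85 and 5.58 in control, and Rev3l, the catalytic subunit of polymerase zeta, had 4.19, 6.66 and 6.56 in CTX and 4.89, 4.51 and 6.55 in control. CTX 1 was lowest in both. Mad2l2, which bridges REV1 and REV3L and also acts in shieldin, had 17.0, 5.75 and 7.01 in CTX and 10.8, 13.5 and 5.79 in control. CTX 1 was the highest of the 6 libraries and CTX 2 the lowest, and the log2 fold change was −0.08 ± 0.44 (SE), the widest error of any member. Rev1 shares 1643 exonic bases (26.6%) with Eif5b on the opposite strand, whose level was 14.4 to 16.3 in CTX and 14.6 to 15.1 in control.

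Of the direct reversal genes, Mgmt was the most abundant and the most variable. It had 27.2, 9.88 and 10.1 RPKM in CTX 1, 2 and 3, against 20.3, 19.7 and 12.2 in controls 1, 2 and 3. CTX 1 was the highest library and CTX 2 and CTX 3 the lowest, with all controls between. Means were 15.7 ± 9.93 in CTX and 17.4 ± 4.49 in control, with a log2 fold change of −0.26 ± 0.41 (SE). Alkbh2 and Alkbh3, dioxygenases that strip alkyl groups from the base-pairing face of adenine and cytosine, hardly varied. Alkbh2 had 9.59, 8.21 and 8.70 in CTX and 8.67, 7.69 and 8.60 in control, and Alkbh3 had 8.13, 7.19 and 7.31 in CTX and 7.79, 7.06 and 8.99 in control. Alkbh2 shares 329 exonic bases (29.5%) with Usp30 on the opposite strand, whose level was 5.73 to 8.07 in CTX and 6.95 to 8.61 in control.

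The variation that the members did show ran within the groups. CTX 1 was below both CTX 2 and CTX 3 in 24 of 35 members and above both in 7, against 56.1% and 36.2% of all tested genes. It was the lowest of all 6 libraries in 22 members, against 41.9% of all tested genes. Control 3 was above controls 1 and 2 in 28 members and below both in 6, against 51.9% and 32.7% of all tested genes. CTX 1 was lowest of the CTX libraries and control 3 highest of the controls together in 24 members (68.6%), against 38.3% of all tested genes. They were 7 of 9 core complex genes, both clamp genes, 8 of 9 recombination genes (all but Xrcc3), 5 of 9 incision genes (Ercc1, Ercc4, Eme1, Fan1 and Dclre1a) and the polymerase genes Rev1 and Rev3l. The reverse order, CTX 1 highest of the CTX libraries and control 3 lowest of the controls, held in 5 members (14.3%, against 20.3% of all tested genes), namely Xrcc3, Slx4, Dclre1b, Mad2l2 and Mgmt. The remaining 6 were Fancf, Fancl, Mus81, Xpa, Alkbh2 and Alkbh3. No test was made of these shares. The orders are of RPKM as deposited, and some change with scaling, as the trimmed-mean factors were 0.917 for CTX 1 and 1.047 for control 3.

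**Figure D4:**
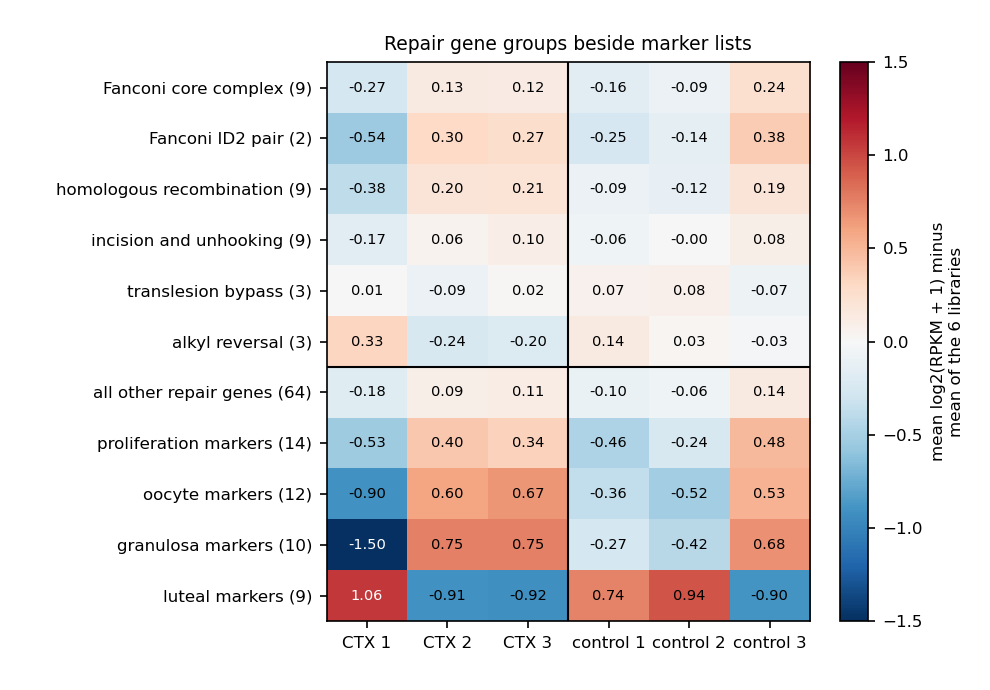
Mean log2(RPKM + 1) of each gene group in each library, as the difference from the mean of the 6 libraries (colour and number; group size in brackets; CTX left of the line, control right). The clamp pair is at −0.54, 0.30 and 0.27 in CTX 1, 2 and 3 and at −0.25, −0.14 and 0.38 in controls 1, 2 and 3. In the clamp pair and in the proliferation, oocyte and granulosa markers, CTX 1, control 1 and control 2 are below 0 and the other 3 libraries above it, and in the luteal markers these signs are turned round.

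Marker lists of ovarian cell types differed between these libraries too. Proliferation markers summed to 118, 229 and 220 RPKM in CTX 1, 2 and 3 and to 120, 142 and 242 in controls 1, 2 and 3, and all 14 had CTX 1 lowest of CTX and control 3 highest of controls. Oocyte markers summed to 108, 391 and 383 in CTX and 171, 147 and 344 in control, and all 12 had that order. Granulosa markers summed to 702, 2570 and 2480 in CTX and 1230, 1080 and 3030 in control, and Inha was the largest part of each sum. All 10 had CTX 1 lowest of CTX and 9 had control 3 highest of controls. The exception was Foxl2, whose highest library stood only 1.19 times above its lowest. Luteal markers had the reverse order in all 9 genes, with sums of 9680, 3140 and 3010 in CTX and 7560, 8160 and 4100 in control. The most abundant of each list were the replication helicase genes Mcm7 (26.1 ± 7.08 RPKM in CTX and 23.7 ± 8.84 in control, SD, n = 3 each) and Mcm2 (20.8 ± 6.26 and 16.6 ± 6.28), and the oocyte genes Padi6 (58.8 ± 34.0 and 41.4 ± 21.2) and Gdf9 (49.6 ± 27.6 and 37.4 ± 16.7). In the granulosa list they were the hormone genes Inha (1240 ± 696 and 1100 ± 770) and Amh (187 ± 128 and 97.7 ± 59.9), and in the luteal list the steroid enzyme genes Hsd3b1 (3110 ± 1980 and 3910 ± 897) and Cyp11a1 (1470 ± 1150 and 1630 ± 737). All are levels in whole ovary. None of these markers was at 0 in any library. The part of cell content in the members' order was not tested, and in whole tissue fewer cells of a type cannot be told apart from less RNA per cell.

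The other marker lists set the sample in context. Surface epithelium markers had 4 of 7 genes separated with CTX lower (Upk1b, Msln, Muc16 and Krt7), against 5.5% of all tested genes, and sums of 28.4 to 41.0 RPKM in CTX and 45.5 to 58.1 in control. In the other marker lists, Tek (endothelial), Csf1r (macrophage) and Inhbb (granulosa) were separated with CTX lower. Endothelial markers summed to 87.8 to 115 in CTX and 111 to 120 in control, and macrophage markers to 333 to 512 and 354 to 523. Adipocyte markers summed to 7.05, 173 and 161 in CTX and 8.38, 5.46 and 127 in control, and 3 of 6 (Adipoq, Lep and Cidec) were at 0 in at least 1 control. The part of these cells in the members' values was not tested. Oviduct markers summed to 4.46 to 17.2 in CTX and 4.93 to 10.7 in control, with Sntn and Krt5 at 0 in every library. Limma called 0 genes in any of the 9 marker lists over all genes, where 4 surface epithelium, 1 endothelial and 1 macrophage gene had an unadjusted p under 0.05.

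The test was also made on repair genes outside the 35. Of 64 such genes 61 were tested, 0 were called by limma in either direction (0 at an unadjusted p under 0.05), 34 were positive and 27 negative, and the median log2 fold change was 0.02. Groups were separated in 1, the alkyladenine glycosylase gene Mpg, with 5.52, 5.83 and 6.17 RPKM in CTX and 6.19, 6.21 and 7.44 in control, against 5.5% of all tested genes lower in CTX without overlap. Among regulators of the Fanconi clamp (11 tested, median 0.00), Usp1, which removes its ubiquitin, had 23.2 ± 6.50 RPKM in CTX and 22.5 ± 3.88 in control, and the histone-fold gene Cenpx 25.7 ± 4.39 and 25.9 ± 2.90. In the recombination list (18 tested, median 0.03) all 18 genes had control 3 highest of the controls and 16 had CTX 1 lowest of the CTX libraries. Its most abundant members, the single-strand binding genes Rpa3 and Rpa1, had 17.4 ± 0.572 and 16.8 ± 3.18 in CTX, against 16.6 ± 2.21 and 15.1 ± 3.64 in control.

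In the excision and nuclease list (13 tested, median −0.01), the damage-sensing partner Rad23b had 47.8 ± 2.92 RPKM in CTX and 50.8 ± 4.13 in control, and the transcription factor subunit Gtf2h1 18.2 ± 0.592 and 18.6 ± 1.43. In the bypass list (9 tested, median 0.02), the ubiquitin-conjugating gene Ube2b had 80.3 ± 11.7 in CTX and 80.3 ± 3.83 in control, and the sliding clamp gene Pcna 49.4 ± 3.42 and 46.8 ± 6.73. Genes of base excision at alkylated bases (10 tested, median 0.04) included Parp1, a strand break sensor, with 40.7 ± 11.4 and 36.0 ± 7.33, and the endonuclease Apex1 with 29.4 ± 1.22 and 26.7 ± 2.61. For p53 targets, which respond to DNA damage, 0 of 12 tested genes were called by limma (0 at an unadjusted p under 0.05), with a median of 0.07. Ccng1 had 26.1 ± 3.27 in CTX and 25.4 ± 3.78 in control, and Trp53inp1 24.5 ± 2.28 and 25.4 ± 3.62. Phlda3, an inhibitor of AKT signalling, was the 1 of 12 p53 targets with separated groups in RPKM as deposited, against 3.32% of all tested genes separated with CTX higher. It had 23.7, 17.99 and 16.2 in CTX and 14.6, 15.4 and 14.1 in control. Dividing by the trimmed-mean scaling factors (1.04 for CTX 3, 0.978 for control 2) puts CTX 3 below control 2.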

How the data were processed

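RNA of whole ovaries was sequenced in 3 CTX and 3 control libraries. Each deposited table of the authors pairs symbols and Ensembl identifiers with an RPKM value. Its header names no unit, and RPKM was read from the values: with GENCODE exon lengths, those of genes up to 1000 bases and 15 reads were whole reads (within 0.2) in 97.6 to 98.1% of cases. The same steps gave depths of 17000000 to 22300000 reads in CTX and 15900000 to 16800000 in control. The submitters' processing notes name Bowtie 0.12.2 and mm10. How reads were counted, on which strand and annotation, and how multiply aligned reads were handled, is not stated there, so close gene copies and overlapping genes are uncertain.

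Exon lengths and coordinates are from GENCODE M21 on GRCm38 (98% of identifiers matched), and 30 symbols were restored through the identifiers. Genes with at least 1 RPKM in at least 3 of 6 libraries were kept, and log2(RPKM + 1) was compared between CTX and control with limma 3.58.1 (R 4.3.3) using a mean-variance trend, two-sided, with Benjamini-Hochberg adjustment over all kept genes. Fold changes of low genes are understated on this scale. The code was tested on simulated data with independent noise in each gene and no shared differences among libraries, so that test does not measure what could be found here. Library pairs were compared for a duplicate deposit. The closest was CTX 2 and CTX 3, with a median chi-square per gene of 1.5, above sampling noise, so neither was a copy of the other and each library was kept. That value cannot show whether CTX 2 and CTX 3 came from separate animals or pools. By this measure the libraries did not group by label. Control 3 was nearer to CTX 3 (3.13) and CTX 2 (4.05) than to control 1 (7.93) and control 2 (9.49). CTX 1 was nearer to control 2 (10.2) and control 1 (13.6) than to CTX 3 (29.1) and CTX 2 (31.5). All 35 members are described, and of every other repair list, the p53 targets and the 4 main marker lists the 2 most abundant genes by mean RPKM over all libraries. The members and lists were chosen with earlier results of these data known. Names outside this rule were chosen after their values were seen: Efemp2, Klc1, Eif5b, Usp30, Polg, Gas2, Vrk2, Zfp276 and Lrrc59 for shared exons, Emc3, Dctn5, Nbr1 and Tex14 for their position, Mpg, Phlda3 and some marker genes for separated groups, Foxl2 for its order, and Chek1. Alternatives were trimmed-mean scaling, quantile normalization, a pseudocount of 0.1, other filters, no trend, a replicate block and each library left out.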

Additional observations from a re-analysis of the deposited data

How the results depend on the processing

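No member was called by limma under any of 13 alternatives, where the smallest adjusted p was 0.197 (Xrcc2). Over all genes there were 0 calls except without CTX 1, which gave 5, so leaving out each library gave 0 to 5 genes called. The members' median log2 fold change was −0.080 to 0.11 with each library left out. Its sign and those of most members rested on single libraries. In 23 of 35 members the sign turned without at least 1 library, with ranges of −0.12 to 0.31 for Fanca, −0.22 to 0.032 for Fancb, −0.14 to 0.15 for Fancc, −0.068 to 0.12 for Fance, −0.13 to 0.14 for Fancf, −0.011 to 0.17 for Fancl, −0.13 to 0.072 for Fancm, −0.21 to 0.18 for Fancd2, −0.083 to 0.39 for Fanci, −0.080 to 0.26 for Brip1, −0.28 to 0.019 for Palb2, −0.050 to 0.41 for Brca1, −0.11 to 0.35 for Brca2, −0.30 to 0.077 for Rad51b, −0.053 to 0.27 for Rad51d, −0.14 to 0.037 for Ercc4, −0.026 to 0.32 for Eme1, −0.33 to 0.12 for Fan1, −0.11 to 0.22 for Dclre1a, −0.075 to 0.018 for Dclre1b, −0.29 to 0.032 for Rev1, −0.51 to 0.19 for Mad2l2 and −0.14 to 0.020 for Alkbh3. The other 12 members kept their sign without each library, but 9 of them moved by over 1.5 times: 0.062 to 0.67 for Xrcc2, 0.0051 to 0.49 for Ube2t, 0.0015 to 0.28 for Rev3l, 0.022 to 0.12 for Alkbh2, 0.16 to 0.34 for Rad51c, −0.71 to −0.028 for Mgmt, −0.36 to −0.037 for Slx4, −0.21 to −0.037 for Fancg and −0.23 to −0.099 for Xpa. Xrcc2, Ube2t, Rev3l and Mgmt were farthest from 0 without CTX 1 and nearest to it without CTX 2. Ercc1, Mus81 and Xrcc3 moved less. With quantile normalization the sign turned in Fancc (0.011), Fancm (0.0111), Fancd2 (0.022) and Dclre1b (0.0226), and the cause was not tested. No sign turned under the other alternatives that kept all libraries.

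With the replicate number as a replicate block there were 0 genes called and 0 members called. Deviations of same-numbered libraries from their group means correlated at 0.401, −0.54 and 0.598. Deviations within a group sum to 0, so these values depend on each other and cannot show whether the numbers pair the libraries.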

Other observations

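Chek1, the checkpoint kinase gene that acts when replication stalls, was highest in CTX 1, where most of the crosslink repair genes were lowest (chosen after its values were seen). It had 15.98, 5.82 and 5.87 RPKM in CTX 1, 2 and 3, against 12.2, 11.4 and 5.74 in controls 1, 2 and 3, with a log2 fold change of −0.16 and a limma adjusted p of 1. CTX 1 was also the highest library in 4 members, against 24% of all tested genes. Of these, Mgmt and Mad2l2 were lowest in CTX 2, Alkbh2 in control 2, and Dclre1b, like Chek1, in control 3. Some other repair genes, such as Cenpx and Ube2b, were highest in CTX 1 too.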
